A study of Mus musculus with 12 samples.

Results

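Translation factors and aminoacyl-tRNA synthetases were followed in the small intestine of mice through 72 h without food. The members were chosen by name: every non-control probe whose gene name in the 12 h scanner files begins with Eif1 to Eif6, Eef1, Eef2 or Etf1, or is a tRNA synthetase name of the form Aars or Sars2, without the Eif4ebp genes. The rule found 40 gene names with 53 probes, and no probe of the release factor Etf1. The array holds 20281 non-control probes, and those with a symbol in a current annotation carry 8075 different symbols. Of the 53 probes, 51 have a symbol in a current annotation, where 14 carry another one. Names of the files are kept below, with today's symbol where it differs. A single probe caught by name, Eif2c4 (today Ago4), belongs to an Argonaute protein of small RNA silencing and is neither a translation factor nor a synthetase.

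Male FVB mice of 6 weeks were either fed or fasted for 12, 24 or 72 h. The animals stayed in metabolic cages, and an infrared lamp warmed them from 24 h on. Warming therefore cannot be told apart from fasting after 72 h, nor after 24 h if those mice were warmed before sacrifice, which is not stated. No genetic change is named for any group. Extracts held the full thickness of the small intestine, so epithelium, immune cells and muscle were measured together, and fewer cells of a type cannot be told apart from less RNA per cell. On each of the 12 arrays, RNA pooled from 2 mice (Cy3) was hybridised against the RNA of 6 fed mice as reference (Cy5), without dye swaps, and there were 3 pools for each of the 4 time points. The source label of the reference on fed replicate 3 names only the mice of that pool's own number. A value below is the log2(Cy3/Cy5) of a probe, so that 0 means the level of the fed reference, and a change is a difference of mean log2 ratios between time points, with its standard error (SE) and an adjusted p from limma. Calls were made at an adjusted p under 0.05, with the adjustment over every probe tested.

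Protein synthesis begins when eIF2 brings the initiator tRNA and eIF3 and eIF4 bring the mRNA to the small ribosomal subunit. Elongation then runs on eEF1A, which delivers charged tRNAs, and eEF2, which moves the ribosome along the mRNA. Aminoacyl-tRNA synthetases load each tRNA with its amino acid. Lack of amino acids is known to act on this machinery through kinases of eIF2 and eEF2 and through the transcription factor Atf4, which binds a composite element in the promoters of several synthetase and amino acid genes. The intestinal epithelium renews itself continuously and is known for a high rate of protein synthesis.

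Precision differed between arrays. The fed and 72 h files share a format and a low Cy5 signal (array medians of 124 to 142), and the 12 h and 24 h files another with higher Cy5 signal (393 to 627), so that this difference cannot be told apart from fasting at 12 and 24 h against fed, whereas 72 h against fed and 24 h against 12 h lie within a format. Median Cy5 signals were 1.65 to 2.11 times their background, and Cy3 signals 3.36 to 6 times. Fed replicate 3 held the highest or lowest of the 12 values in 27 of the 53 members (50.9%, against 30.5% of all probes). For 12 h replicate 3 this held in 23 members (43.4% against 46%), and for each other array in 1 to 11. In 12 h replicate 1, 5.47% of spots were outliers, against 0.27 to 1.29% elsewhere. Log ratios over all probes correlated with r of 0.81 to 0.85 between the 72 h pools, but only 0.18 to 0.54 between the 12 h pools and 0.2 to 0.79 between the fed pools. A fed and a 12 h array reached an r of -0.38. The methods state the dyes, so the direction of the ratios was kept.

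After 12 h, 13 of the 53 members were called (24.5%, against 10.8% of the 20279 probes tested). Of these, 7 were higher (13.2% of members, 4.87% of all probes) and 6 lower (11.3% against 5.95%). After 24 h, 6 members were called (11.3% against 10%), 4 of them higher (7.55% against 3.75%) and 2 lower (3.77% against 6.29%). After 72 h, 5 were called (9.43% against 10.5%), with 3 higher (5.66% against 4.76%) and 2 lower (3.77% against 5.74%). The split between higher and lower depended on the scaling. With each array centred on its median, 3 of 18 called members were higher after 12 h, 2 of 12 after 24 h and 2 of 17 after 72 h. Loess gave 4 of 11 after 24 h and 3 of 8 after 72 h, and keeping control spots in the normalization, chosen after seeing the data, gave 9 of 12, 7 of 8 and 2 of 5. A member called after 12 h, Eif3s6, had a value in a single 12 h pool, and 12 members were called without it. The share of members called was near that of all probes after 24 and 72 h. The median change of the members was 0.05 after 12 h, -0.12 after 24 h and -0.22 after 72 h, while the median of all probes lay between -0.02 and 0.02. No change was called in 31 of the 53 members, at any time point or between fasted time points. The matching share over all probes was not counted.

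The calls against fed rested on few arrays. Without fed replicate 3, 22 of the 24 calls against fed were lost, and 1 member (Eef2, A_65_P05943) was called after 12 h, none after 24 h and 2 after 72 h, with 12 members at an unadjusted p under 0.05 in limma after 24 h. Over all probes, 614, 943 and 1070 were then called, against 2194, 2037 and 2128 with every array. When limma was given the fed and 12 h arrays alone, no probe at all was called, although 19 members had an unadjusted p under 0.05. Over all comparisons, 4 of the 33 called changes were called whichever single array was left out: Eef2 (A_65_P05943) after 12 h, Eef2 (A_65_P10343) after 72 h, and Kars (A_65_P10214) and Yars (A_65_P00648) from 12 to 72 h. By contrast, 9 changes each lost their call when any 1 of 9 to 11 arrays was left out: Eif1a, Eif2b1 (A_65_P19703), Eif3s2 and Kars after 12 h, Eef1a2 after 24 h, Eif4e after 72 h, Sars1 and Sars2 from 12 to 72 h, and Eef1a1 (A_65_P20355) from 24 to 72 h.

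**Figure D1:**
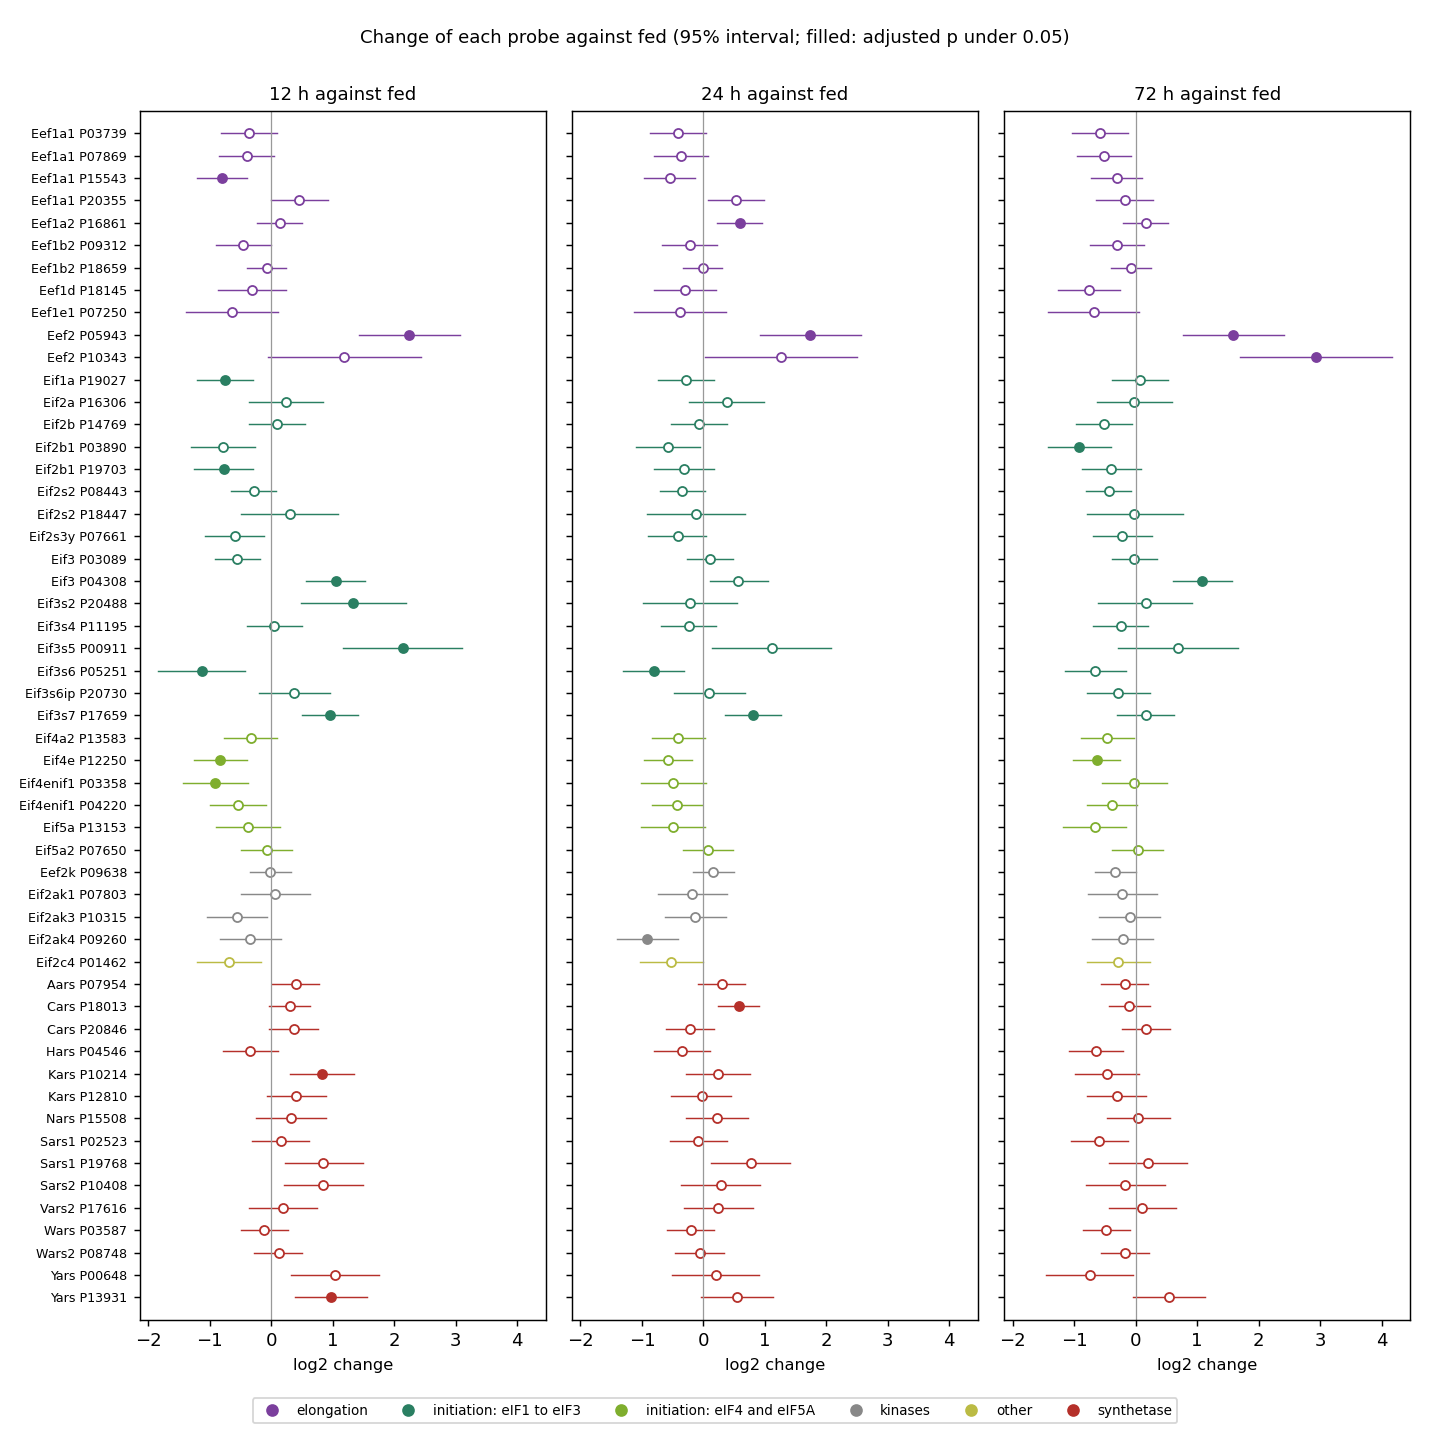
Log2 change of each of the 53 probes after 12, 24 and 72 h against fed (x axis), 1 row per probe, including 5 not well above background on any fed array, coloured by role, with the 95% interval of limma as a line and called changes as filled points. The Eef2 probes lie farthest to the right after 72 h, and 13 of the 15 synthetase probes lie right of 0 after 12 h but 5 after 72 h.

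The elongation factor Eef2 changed most. Its probe A_65_P05943 read -0.18, 0.03 and -0.35 in the 3 fed pools, 1.27, 1.57 and 3.4 after 12 h, 1.56, 1.52 and 1.65 after 24 h, and 1.39, 1.63 and 1.25 after 72 h. All 9 fasted pools were above all 3 fed pools. The rise was 2.25 (SE 0.38, adjusted p = 0.0053, 4.75-fold) after 12 h, 1.74 (adjusted p = 0.015) after 24 h and 1.59 (adjusted p = 0.016) after 72 h. The probe's Cy5 reference was lower by 1.01 on average on the 12 h arrays, mostly through replicate 3. Cy5 read 11.54, 11.44 and 9.44 on the 12 h arrays, against 11.76, 11.65 and 12.05 on the fed arrays. The value of 3.4 thus came with a low reference. Cy3 alone rose by 1.24 after 12 h (adjusted p = 0.00016 in limma). The Cy5 changes were only -0.13 and -0.15 after 24 and 72 h. The 12 h call held whichever single array was left out. Without fed replicate 1 or fed replicate 3 both later calls were lost, and without 72 h replicate 1 or 2 the 72 h call was lost as well.

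The other Eef2 probe, A_65_P10343, read 0.29, 0.76 and 0.18 in the fed pools and 3.58, 3.18 and 3.26 after 72 h. Its 72 h rise of 2.93 (SE 0.58, adjusted p = 0.0052, 7.64-fold) was the largest of any member, and it was called without any single array in turn. After 12 h it read 2.37, 2.89 and -0.46, so that replicate 3 lay below the fed pools while the first probe was highest in that same pool. After 24 h it read 1.84, 1.78 and 1.41, all above the fed pools, but with a change of 1.27 (adjusted p = 0.17) that was not called. Eef2 was the only gene of the 11 with several probes whose probes were all called in a comparison with fed, which happened after 72 h.

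**Figure D2:**
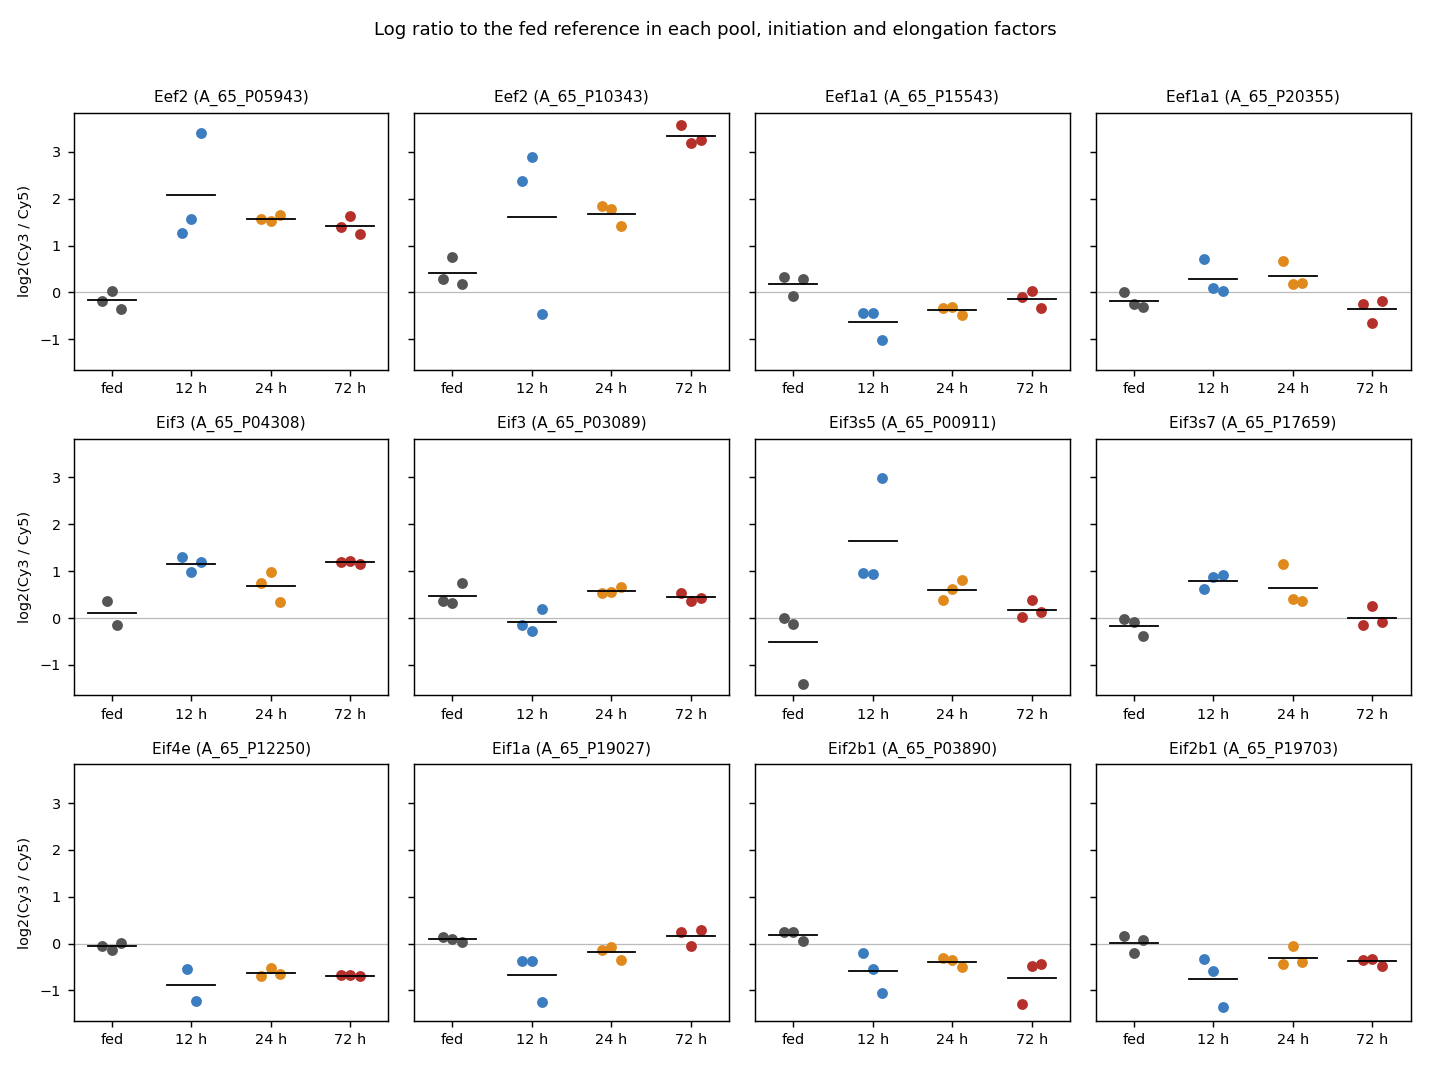
Log2(Cy3/Cy5) of each pool (points) and the mean of each time point (lines) for 12 probes of elongation and initiation factors. Both Eef2 probes stand above the fed pools after 72 h, whereas the log ratios of the Eef1a1 pair and of the Eif3 pair move in different directions after 12 h, which the Cy3 channel alone does not show.

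The remaining elongation factors had smaller changes, in both directions. Of the 4 probes of Eef1a1, A_65_P15543 read 0.32, -0.08 and 0.29 in the fed pools and -0.43, -0.43 and -1.01 after 12 h, a fall of 0.80 on the log2 scale (adjusted p = 0.021) that Cy3 alone showed as well (-0.93). The log ratio of A_65_P20355 was 0.01, -0.24 and -0.31 in the fed pools and 0.72, 0.09 and 0.03 after 12 h, not called (adjusted p = 0.17). This probe was not well above background on any fed array, so no fold against fed is given. Its Cy5 reference had fallen by 0.76 on the 12 h arrays (adjusted p = 0.0056) and its Cy3 by 0.30, so that Cy3 had the same sign on both probes. The other pair of Eef1a1 probes had changes of -0.36 and -0.40 after 12 h and of -0.58 and -0.52 after 72 h, none of them called. Eef1a1 has near-identical copies in the genome, and no probe sequence was used here, so its probes may read different transcripts.

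Eef1a2, the form known from muscle and nerve, was not well above background on any fed array. Its log ratio was called higher after 24 h (adjusted p = 0.044), and its Cy3 level was at least 1.2-fold higher, with an adjusted p of 0.14 for Cy3 alone. The call was lost in 5 of 13 alternatives and when any 1 of 9 arrays was left out. The log ratios were -0.27, -0.18 and -0.33 in the fed pools and 0.38, 0.28 and 0.33 after 24 h. Eef1b2, Eef1d and Eef1e1, which recharge eEF1A or join the synthetase complex, had changes between -0.76 and -0.22 in the 3 comparisons, leaving out an Eef1b2 probe that was not well above background on any fed array, and none was called. The lowest of these was Eef1d after 72 h, at -0.76 (adjusted p = 0.052).

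Sequences around the annotated starts are shown for the genes the results turn on, since Eef1a1 and Eef2 are textbook members of the class of mRNAs that begin with a C followed by pyrimidines, whose translation depends on nutrients. The bases come from the RefSeq annotation of GRCm38.p6, run from 10 before the annotated start through the first 20 of the transcript, and are on the gene's strand. Capitals mark a run of at least 5 C or T bases, led by C, that begins within 10 bases of the start.
Eef2, chr10:81176621-81176650 (plus strand): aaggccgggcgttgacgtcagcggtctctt
Eef1a1, chr9:78481705-78481734 (minus strand): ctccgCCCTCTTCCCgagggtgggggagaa
Eif3s5 (today Eif3f), chr7:108934405-108934434 (plus strand): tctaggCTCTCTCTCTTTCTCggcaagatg
Eef1a1 and Eif3s5 hold runs of 10 and 15 bases, and Eef2 holds none at the start annotated there. Such a run lay in 18 of the 36 windows found for 29 member genes (50%), against 30.7% of 32851 windows of all genes. It is a match of letters and does not place the start of the mRNA in these pools.

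Among initiation factors, the log ratios of eIF3 subunits moved in both directions. After 12 h their Cy3 changes ran from -0.04 to 1.34, and those of their Cy5 reference from -1.34 to 1.77. eIF3 is the large complex that holds the small subunit ready for the mRNA, and 7 of its subunits were measured with 8 probes. Eif3s5 read -0.01, -0.12 and -1.4 in the fed pools and 0.97, 0.94 and 2.99 after 12 h, a rise of 2.14 (SE 0.45, adjusted p = 0.013, 4.41-fold). All 3 pools were above the fed pools, yet the extreme values came from fed replicate 3 and 12 h replicate 3, and the call was lost without fed replicate 3. On the 12 h arrays Cy3 read 10.46, 10.45 and 10.41 and Cy5 9.49, 9.51 and 7.42, so the value of 2.99 came with a low reference. Cy3 alone rose by 1.34 (adjusted p = 0.015), and Cy5 changed by -0.80. The probe read 0.39, 0.61 and 0.81 after 24 h and 0.03, 0.39 and 0.12 after 72 h, neither called (changes of 1.11 and 0.69).

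Eif3s7 (today Eif3d), the cap-binding subunit, read -0.03, -0.08 and -0.39 in the fed pools, 0.62, 0.87 and 0.91 after 12 h, 1.15, 0.41 and 0.37 after 24 h, and -0.16, 0.25 and -0.09 after 72 h. It was higher by 0.96 (adjusted p = 0.015) after 12 h and by 0.81 (adjusted p = 0.03) after 24 h, with both sets of pools above the fed ones. Cy3 alone gave 0.63 (adjusted p = 0.13) after 12 h and 0.94 (adjusted p = 0.022) after 24 h. The 12 h call was kept in 9 of 13 alternatives and lost without fed replicate 3. The 24 h call was kept in 11 of 13 alternatives and in 8 of 12 fits with an array left out. After 72 h Eif3s7 overlapped the fed pools, and the fall of 0.80 from 12 to 72 h was called (adjusted p = 0.029). That call was kept in 6 of 12 alternatives and in 8 of 12 fits with an array left out. Cy3 alone changed by -0.56 (adjusted p = 0.17) over this interval.

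Eif3s6 (today Eif3e), also known as Int6, went the other way in its log ratios. Its fed pools read 0.01, -0.55 and 0.41 and its 24 h pools -1.05, -0.67 and -0.86, a fall of 0.81 on the log2 scale (adjusted p = 0.043) with Cy3 at -0.38 and Cy5 at 0.44. After 12 h only replicate 3 had a value, -1.18, and the called change of -1.13 (adjusted p = 0.044) rests on that pool, which limma takes to vary like the other groups. There the Cy5 reference had risen by 1.77 and Cy3 alone by 0.64. After 72 h the change was -0.66 (adjusted p = 0.091).

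The 2 probes of Eif3 (today Eif3a), the scaffold of the complex, disagreed. A_65_P04308 read 0.37 and -0.15 in the fed pools with a value and 1.3, 0.99 and 1.19 after 12 h, higher by 1.05 (adjusted p = 0.013). Its 24 h pools read 0.74, 0.98 and 0.34 (change 0.57, adjusted p = 0.11), of which the lowest overlapped the fed pools. After 72 h it read 1.2, 1.22 and 1.16 and was higher by 1.08 (SE 0.22, adjusted p = 0.0071, 2.12-fold), a call lost only without fed replicate 3 among the alternatives and arrays tried. Cy3 alone rose by 0.88 after 72 h but changed by -0.04 after 12 h, when the Cy5 reference fell by 1.09. The other probe, A_65_P03089, read 0.36, 0.31 and 0.74 in the fed pools, -0.15, -0.28 and 0.19 after 12 h, and 0.53, 0.37 and 0.42 after 72 h. Its 12 h change was -0.55 (adjusted p = 0.056) and its 72 h change -0.02. In Cy3 alone the 12 h changes of the pair were 0.04 and -0.04, and the opposite signs of the ratios lay in the reference (0.59 and -1.09).

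Eif3s2 (today Eif3i) read 0.61, 0.03 and -1.07 in the fed pools and 0.62 and 1.76 in the 12 h pools with a value. Its rise of 1.33 (adjusted p = 0.048) lay in the Cy5 channel (-1.34), with Cy3 at -0.01, and the lowest 12 h pool barely exceeded the highest fed pool. Its 24 and 72 h pools lay between -0.57 and 0.1, within the fed range. Eif3s4 (today Eif3g) and Eif3s6ip (today Eif3l) had changes between -0.28 and 0.38, and none was called.

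Among the factors around the initiator tRNA, Eif1a and Eif2b1 had called changes. Eif1a, which helps the ribosome scan for the start codon, fell by 0.75 on the log2 scale after 12 h (adjusted p = 0.04) and was higher by 0.82 after 72 h than after 12 h (adjusted p = 0.026). Its pools read 0.15, 0.1 and 0.03 when fed, -0.37, -0.37 and -1.24 after 12 h, and 0.25, -0.05 and 0.29 after 72 h. Cy3 alone gave larger differences in the same directions, -1.29 and 1.28.

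Eif2b1 is a subunit of eIF2B, which recharges eIF2 with GTP and is blocked when eIF2 is phosphorylated. Its probe A_65_P03890 read 0.25, 0.25 and 0.06 in the fed pools, -0.19, -0.54 and -1.05 after 12 h, -0.3, -0.36 and -0.5 after 24 h, and -1.28, -0.48 and -0.43 after 72 h. All 9 fasted pools were below the fed ones, and the change was called after 72 h (-0.92, SE 0.24, adjusted p = 0.026), while the 12 h change of -0.78 was not (adjusted p = 0.051). The second probe, A_65_P19703, was called after 12 h instead (-0.77, adjusted p = 0.044), with fed pools at 0.17, -0.2 and 0.08, 12 h pools at -0.33, -0.59 and -1.35, and changes of -0.34 in Cy3 and 0.43 in Cy5. It had a change of -0.40 after 72 h (adjusted p = 0.3), with pools at -0.34, -0.33 and -0.47. Thus both probes had negative changes at all 3 time points, each with a single call.

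The eIF2 subunits Eif2a (today Eif2s1), Eif2s2 and Eif2s3y and the eIF2B subunit Eif2b (today Eif2b4) had no called change. Their changes ranged from -0.59 to 0.38. The 2 Eif2s2 probes differed after 12 h, where A_65_P08443 changed by -0.28 and A_65_P18447 by 0.30, the latter with pools at -0.5, -0.48 and 1.31.

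The cap-binding protein Eif4e read below the fed pools at every time. Its pools read -0.05, -0.13 and 0.02 when fed, -0.54 and -1.22 in the 12 h pools with a value, -0.7, -0.53 and -0.64 after 24 h, and -0.68, -0.68 and -0.69 after 72 h. All 8 fasted values were below the fed ones. The fall was called after 12 h (-0.83, adjusted p = 0.022) and 72 h (-0.63, SE 0.18, adjusted p = 0.039), and the 24 h change of -0.57 had an adjusted p of 0.059. After 12 h the difference lay almost wholly in the reference, with Cy5 at 0.75 (adjusted p = 0.018) and Cy3 at -0.08 (adjusted p = 0.81), and without 12 h replicate 3 the change was -0.49 and not called. After 72 h the Cy5 reference differed by 0.11 and Cy3 by -0.52 (adjusted p = 0.055).

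Eif4enif1, which carries Eif4e into the nucleus and into RNA granules, fell by 0.91 on the log2 scale after 12 h (adjusted p = 0.033) in probe A_65_P03358. Its fed pools read 0.75, 0.67 and 0.6 and its 12 h pools -0.92, 0.29 and -0.09. After 72 h the pools read 0.55, 0.97 and 0.44, higher by 0.89 than after 12 h (adjusted p = 0.034). Both differences lay mostly in the Cy5 channel (0.75 and -0.92), with Cy3 at -0.17 and -0.02. The other probe changed by -0.54 after 12 h and -0.38 after 72 h, and was not called. A_65_P03358 was well above background on 2 fed arrays and the other probe on 1. Eif4a2, Eif5a and Eif5a2 had changes from -0.67 to 0.07, with none called. Over the 6 probes of the eIF4 and eIF5A group, the change was negative in 6 after 12 h, 5 after 24 h and 5 after 72 h, with medians of -0.46, -0.46 and -0.42 against -0.02 to 0.02 for all probes. In Cy3 alone, 4, 4 and 5 of the 6 were negative, with medians of -0.04, -0.44 and -0.43, while Cy5 was positive in all 6 after 12 h.

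Kinases that slow translation had 1 call. Eif2ak4 (Gcn2), which senses uncharged tRNA, read -0.22, -0.31 and 0.31 in the fed pools and -0.96, -1.31 and -0.68 after 24 h, all below the fed pools (change -0.91, SE 0.23, adjusted p = 0.026). The Cy5 reference made up most of it, at 0.73 against -0.18 in Cy3. The probe was well above background on only 1 fed array. Its changes after 12 and 72 h were -0.34 and -0.21, not called. Eif2ak1 (heme-regulated), Eif2ak3 (Perk, of the endoplasmic reticulum) and Eef2k, which inactivates eEF2, had changes between -0.55 and 0.16, and none was called. Eef2k read -0.47, -0.3 and -0.3 when fed and -0.79, -0.59 and -0.69 after 72 h, which do not overlap (change -0.33, adjusted p = 0.2). The Argonaute Eif2c4 changed by -0.68, -0.52 and -0.28, not called.

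The tRNA synthetases had mostly positive changes after 12 h and mostly negative ones after 72 h. Their 15 probes for 11 genes include Cars (A_65_P20846) and Wars2, which were not well above background on any fed array. Of the 15 probes, with these counted, 13 had a positive change after 12 h, 9 after 24 h and 5 after 72 h. Their median change was 0.37, then 0.22, then -0.18, against -0.02, 0.02 and 0.01 for all probes. In Cy3 alone, 12, 6 and 6 of the 15 were positive, with medians of 0.40, -0.08 and -0.16, against 0.02, -0.07 and -0.01 for all probes. After 24 h the Cy3 median of the synthetases thus lay near that of all probes. Only 2 probes passed the test after 12 h and 1 after 24 h, all higher, and none after 72 h, where 4 (Hars, Sars1, Wars and Yars) had an unadjusted p under 0.05 in limma, with changes from -0.75 to -0.48. From 12 to 72 h, all 15 changes were negative (median -0.43, against 0.01 for all probes), and 4 were called lower. The 12 h and 72 h arrays differ in format, and the lowest and highest of these changes were -1.79 and -0.08. In Cy3 alone, 11 of the 15 were negative from 12 to 72 h.

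Yars, which charges tRNAs with tyrosine, gave the largest of these changes. Its probe A_65_P00648 read -0.47, -0.36 and -0.72 in the fed pools, -0.17, 0.11 and 1.63 after 12 h, -0.43, -0.14 and -0.39 after 24 h, and -1.34, -1.2 and -1.26 after 72 h. The high value of 12 h replicate 3 came with a Cy5 reference of 8.34, against 10.43 and 9.92 on the other 12 h arrays. The 72 h pools were below all other pools, and the fall of 1.79 on the log2 scale from 12 to 72 h (SE 0.33, adjusted p = 0.005) was called without any single array in turn and appeared in Cy3 alone (-1.30). Against fed, its changes of 1.04 after 12 h (adjusted p = 0.058) and -0.75 after 72 h (adjusted p = 0.17) were not called. The second Yars probe, A_65_P13931, read 0.35, 0.21 and 0.13 when fed, 0.86, 1.79 and 0.97 after 12 h, 0.79, 0.27 and 1.27 after 24 h, and 1.04, 0.85 and 0.42 after 72 h. It was called higher after 12 h (0.98, adjusted p = 0.037), mostly through the reference, with Cy5 at -0.64 (adjusted p = 0.013) and Cy3 at 0.34 (adjusted p = 0.46). Its pools were still above the fed pools after 72 h (0.54, adjusted p = 0.24), where the first probe had a change of the opposite sign.

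Kars, for lysine, had a called change over the same interval. A_65_P10214 read -0.55, -0.57 and -1.28 when fed, -0.46, -0.01 and 0.54 after 12 h, -0.62, -0.69 and -0.36 after 24 h, and -1.35, -1.16 and -1.27 after 72 h. It was higher by 0.82 after 12 h (adjusted p = 0.046; 0.41 in Cy3 and -0.41 in Cy5), a call lost when any of 11 arrays was left out. From 12 to 72 h it fell by 1.28 on the log2 scale (SE 0.25, adjusted p = 0.0058), a call kept without any single array and lost in Cy3 alone (-0.58). The other Kars probe changed by 0.41 after 12 h and -0.31 after 72 h, neither called.

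The mitochondrial Sars2 read -0.64, -0.54 and -1.11 when fed, -0.62, -0.08 and 0.98 after 12 h, and -0.83, -1.08 and -0.88 after 72 h. It fell by 1.02 on the log2 scale from 12 to 72 h (adjusted p = 0.043), with Cy3 alone at -0.40 (adjusted p = 0.18) and Cy5 at 0.62. Without 12 h replicate 3 the change was -0.58, and the call was lost in 8 of 12 alternatives and when any 1 of 10 arrays was left out. The cytosolic Sars1 (today Sars) fell over the same interval by 0.74 (adjusted p = 0.042) in probe A_65_P02523, from 0.28, 0.7 and 0.59 to -0.53, -0.06 and -0.07, with Cy3 alone at -1.60 (adjusted p = 0.055). On this probe both channels rose together after 24 h, Cy3 by 2.02 and Cy5 by 2.11, so that the ratio changed by only -0.09. The other Sars1 probe changed by 0.85 after 12 h (adjusted p = 0.077) and 0.77 after 24 h (adjusted p = 0.11), with a low value of -1.32 in fed replicate 3.

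Cars, for cysteine, was called after 24 h in probe A_65_P18013. It read -0.11, -0.19 and -0.34 when fed, 0.28, 0.55 and 0.25 after 24 h and -0.45, -0.24 and -0.27 after 72 h, a rise of 0.58 (adjusted p = 0.034) and then a fall of 0.68 on the log2 scale to 72 h (adjusted p = 0.015). Both differences lay in the Cy5 channel (-0.73 and 0.59), with Cy3 at -0.16 and -0.09. This probe was well above background on 2 fed arrays. The second Cars probe, not well above background on any fed array, read -0.43, -0.29 and -0.28 after 24 h, with fed pools at -0.07, -0.05 and -0.24, not called. Aars, Hars, Nars, Vars2 (today Vars) and Wars had changes between -0.65 and 0.40 against fed, with none called, and neither was Wars2, which was not well above background on any fed array. The most negative was Hars after 72 h, at -0.65 (adjusted p = 0.064), with pools of -0.51, -0.29 and -0.43 below the fed pools of -0.06, 0.01 and 0.75.

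**Figure D3:**
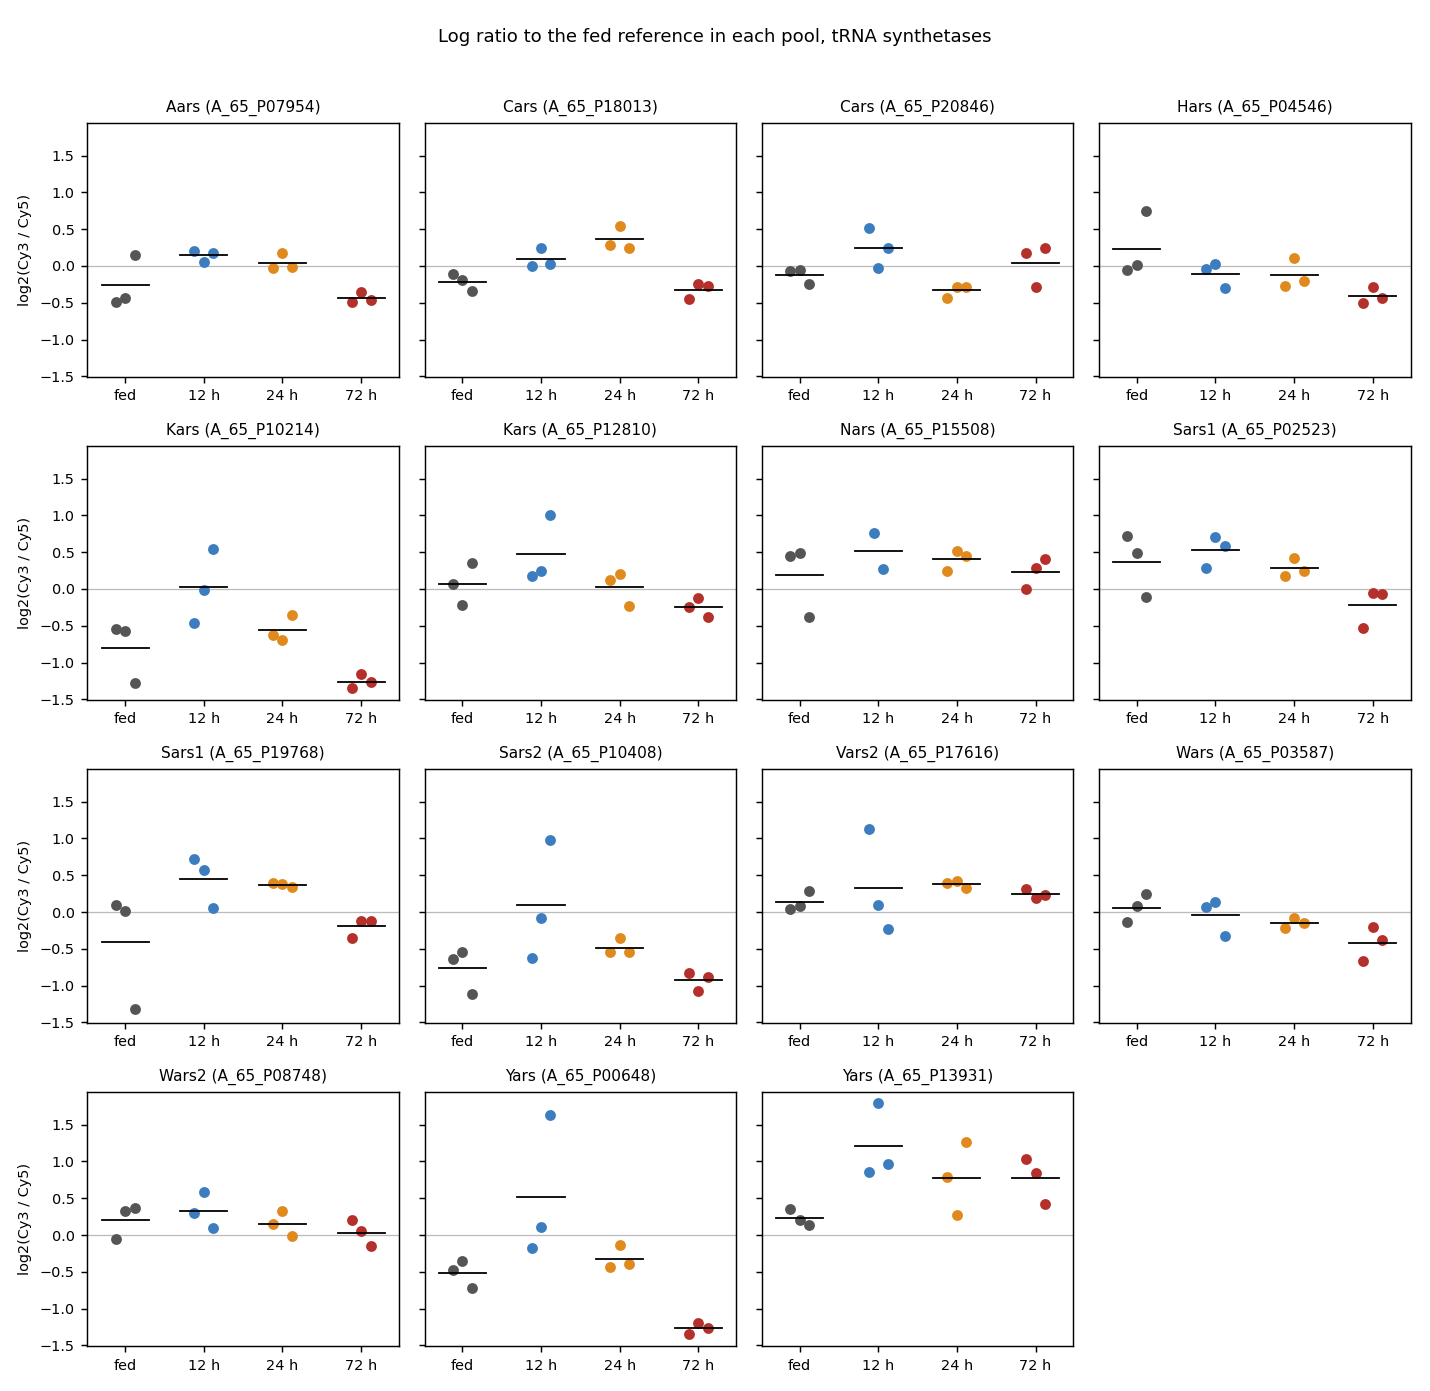
Log2(Cy3/Cy5) of each pool (points) and the mean of each time point (lines) for the 15 probes of 11 tRNA synthetases. The 72 h mean lies below the 12 h mean in all 15 panels. In Kars (A_65_P10214), Sars2 and Yars (A_65_P00648) the highest value comes from 12 h replicate 3. There the Cy5 reference read 7.41, 8.25 and 8.34, against 8.82 to 10.43 on the other 12 h arrays. Cy3 in that replicate was the lowest of the 12 h pools for each of these probes.

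The promoters of 6 synthetase genes were searched on both strands for TGATGNAA, the core of the composite element that Atf4 and C/EBP proteins are known to bind. The windows run from 250 bases before to 50 after the annotated start. Yars and Aars held it, and Kars, Sars1, Sars2 and Wars2 did not, while 3.97% of all 32851 windows did. In Aars the match overlaps a pyrimidine run of 6 bases, and in Yars it overlaps none. The windows below are drawn as above, with the motif in capitals (on the opposite strand in Aars, which held a second match 112 bases before the start). Yars and Kars were called lower at 72 h than at 12 h. Aars changed by -0.58 over that interval (SE 0.18, adjusted p = 0.051), with its pools apart, and just missed a call.
Yars, chr4:129189893-129189922 (plus strand): cgacgagctcagcTGATGCAAcccgacggg
Aars, chr8:111033832-111033861 (plus strand): caaggcgtagcgggtcactTTTCATCAgag
Kars, chr8:112011335-112011364 (minus strand): tttcccggaagaggcaggacttagagccac
Of the synthetase genes called lower at 72 h than at 12 h, Yars thus had the letters in its window and Kars, Sars1 and Sars2 did not, which says nothing of the factor itself.

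The channels behind the calls differed between time points. After 12 h, the Cy5 reference alone was called in 16 of the 53 members (30.2%, against 21.9% of all probes), and Cy3 alone in 6 (11.3% against 15%). After 24 h these numbers were 10 (18.9% against 20.3%) and 11 (20.8% against 24.7%). After 72 h, Cy5 was called in 0 members (0% of all probes as well, with 2 members at an unadjusted p under 0.05 in limma) and Cy3 in 3 (5.66% against 8.59%). Of the 13 ratios called after 12 h, Cy5 had moved more than Cy3 in 7, whereas in none of the 5 called after 72 h had it done so. The 3 members that Cy3 alone called after 72 h were both Eef2 probes and Eif3 (A_65_P04308).

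**Figure D4:**
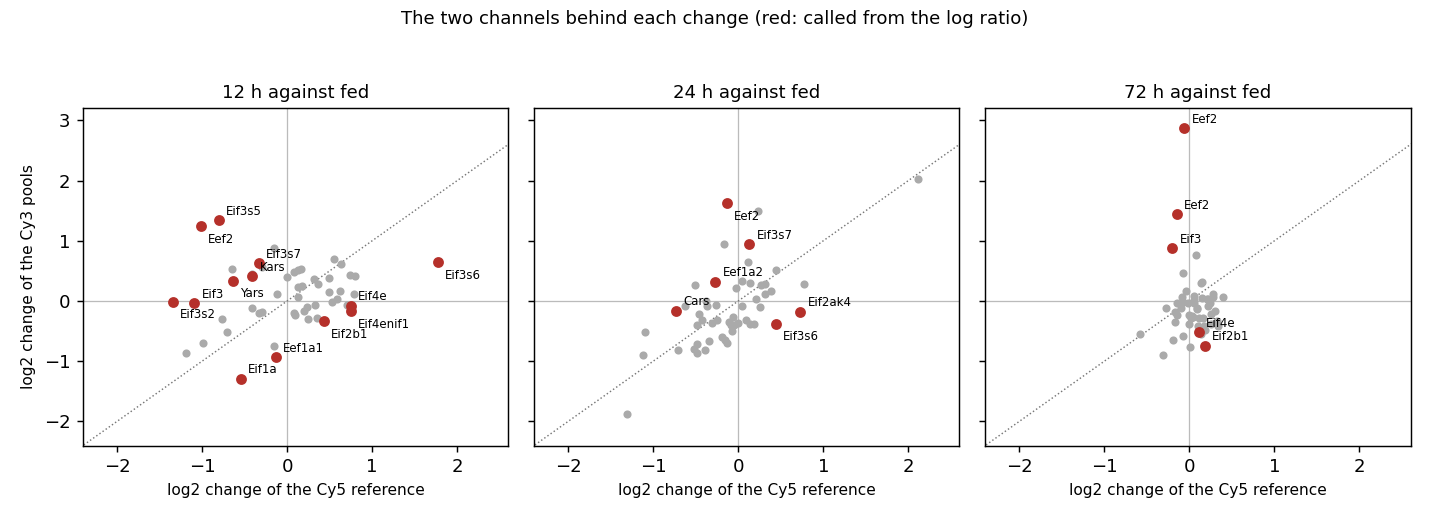
Log2 change of the Cy5 reference (x axis) against that of the Cy3 pools (y axis) for the 53 probes after 12, 24 and 72 h, with probes called from the log ratio in red and the dotted line marking equal change. After 72 h the points lie between -0.58 and 0.40 on the x axis and the Eef2 probes rise to 2.87 and 1.44 on the y axis, while after 12 h several called probes lie left or right of 0 with Cy3 near 0.

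Between fasted times, 9 members were called in all. None was called between 12 and 24 h (10 at an unadjusted p under 0.05 in limma), where 2.91% of all probes were. From 12 to 72 h, 7 were called (13.2%, against 10.7% of all probes): Eif3s7, Kars, Sars1, Sars2 and Yars lower, and Eif1a and Eif4enif1 higher. From 24 to 72 h, 2 were called (3.77% against 10.4%), Cars and Eef1a1 (A_65_P20355), both lower. The Eef1a1 probe changed by -0.71 (adjusted p = 0.049), and it was well above background on only 1 of the 72 h arrays.

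Other genes of these pathways were counted with their brightest probe. Of 13 measured regulators of translation, 1 rose and 1 fell after 12 h, none was called after 24 h, and 2 rose and 1 fell after 72 h. Eif4ebp1, the repressor of Eif4e, was higher by 1.35 after 12 h (adjusted p = 0.012, Cy3 alone 1.01). Rheb, the activator of mTOR, fell by 0.67 on the log2 scale after 12 h (adjusted p = 0.037, Cy3 alone -0.15). Rheb also fell by 0.86 after 72 h (adjusted p = 0.0098, Cy3 alone -0.54). Akt1 rose by 2.19 (adjusted p = 0.0055, Cy3 alone 2.04) after 72 h. The mTOR inhibitor Ddit4, named 5830413E08Rik in the files, rose by 2.13 (adjusted p = 0.00033, Cy3 alone 2.9) after 72 h. Of 11 targets of the amino acid and stress response, Asns, the asparagine synthetase, was higher by 1.71 after 12 h (adjusted p = 0.0021, Cy3 alone 1.18). Asns changed by 0.34 and -0.25 after 24 and 72 h. None was called after 24 h and 2 were lower after 72 h. Atf4 itself changed by -0.08, -0.35 and 0.16, not called.

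Of 6 further synthetase subunits, scaffold proteins and tRNA enzymes, 2 rose after 12 h, the phenylalanine subunits Farsa (named 0610012A19Rik, 0.90, adjusted p = 0.0061) and Farsb (named Farsl, 0.98, adjusted p = 0.025). In Cy3 alone their changes were 0.47 and 0.41. The scaffold Aimp2, named MGC37389 in the files, was called lower at all 3 times, with changes of -0.83, -0.79 and -1.41. In Cy3 alone these were -0.31, -0.85 and -1.26. Of 7 other proteins of the machinery, 1 rose and 1 fell after 12 h, and 1 fell after each of 24 and 72 h. Neither of the 2 mitochondrial translation factors measured, of 10 listed, was called.

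Markers of cell types moved in the same comparisons, and their part in the changes above was not tested. Of 7 measured smooth muscle markers, 4 were called higher after 12 h (median change 1.49) and 2 after each of 24 and 72 h, with summed Cy3 levels of 6830 to 8780 when fed, 8040 to 10700 after 12 h and 8280 to 9090 after 72 h. The 4 called after 12 h (Acta2, Actg2, Des and Smtn) had ratio changes of 1.49 to 2.42. In Cy3 alone these were 0.57 to 1.3. Of 5 markers of B and plasma cells, 1 was higher after 12 h (Xbp1, 3.93, adjusted p = 0.0065, but only 0.57 in Cy3 alone). In the same list 1 was lower after 24 h and 3 were lower after 72 h. Summed levels were 4620 to 5620 when fed and 1590 to 2050 after 72 h. Of 12 markers of proliferating crypt cells, 1 was called after 12 h and 1 after 24 h, both lower, and 1 was higher and 2 were lower after 72 h (median -0.38). All 5 measured enterocyte markers were well above background on all 12 arrays, as were 42 of the 53 members. After 12 h the enterocyte peptidase Anpep rose (3.43, adjusted p = 0.017, Cy3 alone 1.29). The lactase Lct, named LOC226413 in the files, fell (-0.97, adjusted p = 0.045, Cy3 alone -1.21). After 72 h 1 of the 5 was lower. Summed enterocyte levels were 95300 to 137000 when fed, 119000 to 130000 after 12 h and 107000 to 113000 after 72 h. Of 2 goblet cell markers, 1 was higher after 24 h and Agr2 was lower after 72 h (-1.47, adjusted p = 0.0019, Cy3 alone -1.43). Of 2 Paneth cell markers Mmp7 was higher after 12 h (2.07, adjusted p = 0.04, Cy3 alone 1.41).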

How the data were processed

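RNA was measured on 12 Agilent 2-colour arrays of long oligonucleotide probes. The authors deposited Feature Extraction output with median foreground and background intensities per spot, uncorrected, which were used here. The deposited log ratios are treated as a score, since some decimal points had been moved: 1822 of 257352 cells were scaled back and 89 left out. With the sign turned they equal the values deposited in the series matrix. The study's methods subtract background, quantile normalize and use a Split-Factor analysis of variance, which limma replaced.

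Intensities were corrected with normexp (offset 50), 1075 control spots of 21446 and outlier spots were left out, the 24 channels were quantile normalized together, and spots of a probe were averaged into 20281 probes. limma 3.58.1 in R 4.3.3 fitted a mean per time point over all 12 arrays, moderated with eBayes, with Benjamini-Hochberg adjustment over all probes. Intervals of 95% use the fit's degrees of freedom. Where no fed array had a probe well above background, a fold is given only as a bound if over 1, from Cy3 after loess and Aquantile normalization with dim arrays set to the lowest signal well above background, and is open to dye bias. Labels do not say that pools share litters or days, so p-values measure the spread between pools. The number of arrays limits the precision.

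The members and lists were chosen with earlier results of these data known. Every member called is named, with each pool's value for up to 8 called members per comparison with fed and for probes of a gene that disagree. The fit was tested on simulated data. Alternatives were other background and normalization methods, Cy3 alone, fewer arrays, a replicate block and no moderation. Python 3.11.15 and matplotlib 3.10.9 served for sequences and plots.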

Additional observations from a re-analysis of the deposited data

Results flagged for a closer look

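The following 9 members differed between fasted time points by limma's test of the difference itself, with adjusted p-values over all probes. From 12 to 72 h, Yars (A_65_P00648) changed by -1.79 (adjusted p = 0.005), Kars (A_65_P10214) by -1.28 (adjusted p = 0.0058), Sars2 by -1.02 (adjusted p = 0.043), Eif3s7 by -0.80 (adjusted p = 0.029) and Sars1 (A_65_P02523) by -0.74 (adjusted p = 0.042). Over the same interval Eif4enif1 (A_65_P03358) changed by 0.89 (adjusted p = 0.034) and Eif1a by 0.82 (adjusted p = 0.026). From 24 to 72 h, Eef1a1 (A_65_P20355) changed by -0.71 (adjusted p = 0.049) and Cars (A_65_P18013) by -0.68 (adjusted p = 0.015). All 3 pools of each time point lay apart from the 3 of the other in these 9. The earlier and later arrays differ in file format and Cy5 signal, which cannot be told apart from time in these comparisons.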

How the results depend on the processing

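Of the 33 called changes, 28 kept their direction in all alternatives, and none was called in all of them and without each array; 4 were called whichever single array was left out. All 5 reversals came from Cy3 alone: Eif3 (A_65_P04308) at -0.04, Eif3s6 at 0.64 and Eif3s2 at -0.01 after 12 h, Cars (A_65_P18013) at -0.16 after 24 h, and Eif4enif1 (A_65_P03358) at -0.02 from 12 to 72 h. The cause was not tested. The counts given were 13, 6 and 5 members after 12, 24 and 72 h, and 9 between fasted times.

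Counts over all probes are given in brackets, for the comparisons with fed only. In the main fit they were 2194, 2037 and 2128 after 12, 24 and 72 h. Without background correction, 7, 2 and 3 members were called against fed (1189, 1457 and 1580 of all probes). Loess gave 11 after 24 h (3989) and 8 after 72 h (3379). Median centring gave 12 after 24 h (3904), 17 after 72 h (2824) and, between fasted times, 4. The log ratio of the scanning software gave 5 between fasted times. Cy3 alone gave 6, 11 and 3 against fed (3048, 5008 and 1741) and 14 between fasted times. A direct comparison with the reference gave 11 after 24 h (3091) and 19 after 72 h (5083), and has no value between fasted times. A limma fit of only the arrays compared called 0 after 12 h (no probe at all, with 19 members at an unadjusted p under 0.05). The same fit called 14 after 24 h (3274) and 11 after 72 h (3831). Without moderation of the variance, 3, 1 and 1 were called against fed (1030, 1219 and 1442) and 4 between fasted times. The thresholds of the methods gave 18 between fasted times, as did keeping control spots in the normalization, an alternative chosen after seeing the data. The 15 negative synthetase changes from 12 to 72 h fell to 13 without background correction and 11 in Cy3 alone.

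Leaving out single arrays, limma called 1 to 18 members after 12 h, 0 to 11 after 24 h, 2 to 14 after 72 h and 2 to 15 between fasted times. Over all probes it called 614 to 4598 after 12 h, 588 to 3967 after 24 h and 831 to 3723 after 72 h. Without fed replicate 3, 22 of the 24 calls against fed were lost, and without fed replicate 1, 17. The 24 h count was 0 without either (12 and 14 at an unadjusted p under 0.05). The 12 h count was highest without 12 h replicate 1, the 24 h and 72 h counts without 12 h replicate 3. The count between fasted times was lowest without 72 h replicate 1 and highest without fed replicate 3 or 12 h replicate 1.

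Deviations from the mean of each time point, over all probes, were correlated between pools. Between pools with the same number r was -0.28 to 0.13, over 0.1 in 2 of 18 pairs. Pools with different numbers gave -0.28 to 0.32. Because deviations within a time point balance out, these values cannot show whether pools of the same number are related. With the replicate number as a block, 8 members were called after 12 h, 4 after 24 h, 4 after 72 h and 7 between fasted times. Over all probes, 1287, 1499 and 1693 were called against fed with that block. Slide and scan date were not run as blocks, since no source used here gives them. Cy5 signals near background limit the ratios of dim probes.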
